A study of Mus musculus with 14 samples.

Results

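The genes described here are 10 rows of the counts table, chosen by gene name. They encode the signalling chains of the T cell receptor complex (Cd3d, Cd3e, Cd3g, Cd247), constant regions of the receptor itself (Trac, Trbc2, Trdc) and proteins of the cytotoxic granule (Prf1, Gzmb, Nkg7). All 10 were found among 56953 genes, and 8 of them were among the 16027 genes kept by a filter on low counts. Trac and Gzmb were not kept and are given as counts, without a test.

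RNA of mouse skin was counted in 14 libraries of a 3′ tag kit, which gives 1 read per polyadenylated molecule, close to its end. Knockout skin came from NEDD8fl/fl mice positive for K14-CreERT, induced on 5 consecutive days before the experiment, and was treated with imiquimod (2 libraries) or DMSO (3 libraries). Cre-negative skin came from NEDD8fl/fl mice without K14-CreERT, treated with imiquimod (2 libraries) or DMSO (3 libraries), and wild-type skin came from C57BL/6J mice, treated with imiquimod (2 libraries) or DMSO (2 libraries). Imiquimod, which activates Toll-like receptor 7, was given as Aldara cream at 5% from day 0 to day 7, on shaved backs or right ears, and the labels do not say which site a library came from. No group received the cream base without imiquimod. The labels give induction for knockout skin only, and none for Cre-negative or wild-type skin. Age is not given in the labels, and the design text speaks of an inhibitor of NEDD8 given to wild-type mice, which no sample label names. The K14 promoter drives the Cre in basal keratinocytes and not in T cells. NEDD8 is a small protein that is joined to cullins and other proteins.

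T cells recognise antigen through a receptor of paired chains, alpha with beta or gamma with delta. The receptor chains have short cytoplasmic tails, so they signal through the CD3 gamma, delta and epsilon chains and the zeta chain encoded by Cd247. Mouse epidermis holds resident gamma-delta T cells, called dendritic epidermal T cells, which sit between keratinocytes and carry granules with perforin and granzymes. Perforin makes pores in a target cell, granzyme B enters through them and cleaves proteins, and NKG7 is a granule membrane protein that aids granule release.

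The 3 genes of the CD3 chains lie side by side on chromosome 9. On GRCm39, the build of the deposited table, Cd3g (ENSMUSG00000002033.15) spans 44880870 to 44891729 on the minus strand and Cd3d (ENSMUSG00000032094.9) spans 44893084 to 44898637 on the plus strand. Their starts face away from each other with 1355 bases between them. Cd3e (ENSMUSG00000032093.8) spans 44910038 to 44920911 on the minus strand. Cd247 (ENSMUSG00000005763.16) lies on chromosome 1 at 165616250 to 165698722 and Prf1 (ENSMUSG00000037202.7) on chromosome 10 at 61133612 to 61140459, both on the plus strand. Trbc2 (ENSMUSG00000076498.3) lies on chromosome 6 at 41523664 to 41525286, on the plus strand. Trdc (ENSMUSG00000104876.2) and Trac (ENSMUSG00000076928.6) share chromosome 14, where they span 54380308 to 54386325 and 54457978 to 54460554 on the plus strand. Gzmb (ENSMUSG00000015437.6) lies on the same chromosome at 56496295 to 56499717 on the minus strand, and Nkg7 (ENSMUSG00000004612.10) lies on chromosome 7 at 43086497 to 43087673 on the plus strand.

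The promoters of the CD3 genes on chromosome 9 and of Prf1 are shown, 4 of the 6 genes that fell in knockout skin treated with DMSO. RefSeq entries on GRCm38.p6, an older build than that of the counts, were found for 7 of the 10 genes (Trac, Trbc2 and Trdc had none). Each line gives the 250 bases before the start of the gene, 5′ to 3′ on the gene's strand. The windows are chr9:44980432-44980681 (minus strand) for Cd3g, chr9:44981536-44981785 (plus strand) for Cd3d, chr9:45009612-45009861 (minus strand) for Cd3e and chr10:61297586-61297835 (plus strand) for Prf1. Capitals mark matches, on either strand, to the ETS core AGGAAG, the RUNX core TGTGGT and the E-box CANCTG, and no 2 matches overlap in these windows.
Cd3g: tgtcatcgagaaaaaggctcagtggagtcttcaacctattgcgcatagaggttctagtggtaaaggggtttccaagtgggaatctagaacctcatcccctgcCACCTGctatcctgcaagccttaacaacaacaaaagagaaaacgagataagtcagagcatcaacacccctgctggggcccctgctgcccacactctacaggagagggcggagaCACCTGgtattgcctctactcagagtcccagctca
Cd3d: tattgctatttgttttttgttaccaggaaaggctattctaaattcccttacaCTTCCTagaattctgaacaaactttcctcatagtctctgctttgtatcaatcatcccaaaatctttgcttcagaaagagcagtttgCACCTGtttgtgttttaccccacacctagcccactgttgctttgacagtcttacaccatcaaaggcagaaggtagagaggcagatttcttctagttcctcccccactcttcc
Cd3e: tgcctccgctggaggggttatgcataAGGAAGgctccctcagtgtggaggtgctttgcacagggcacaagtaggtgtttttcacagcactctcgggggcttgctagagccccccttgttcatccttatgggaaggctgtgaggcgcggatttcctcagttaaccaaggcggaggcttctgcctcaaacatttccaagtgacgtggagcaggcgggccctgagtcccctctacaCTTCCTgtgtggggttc
Prf1: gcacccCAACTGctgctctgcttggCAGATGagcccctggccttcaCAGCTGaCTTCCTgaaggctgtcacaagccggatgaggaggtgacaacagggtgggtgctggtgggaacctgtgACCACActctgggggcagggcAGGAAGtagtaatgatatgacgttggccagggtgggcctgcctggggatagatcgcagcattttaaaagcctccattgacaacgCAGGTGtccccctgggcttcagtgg

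The 4 windows differ in the motifs they hold. Cd3e holds 2 ETS cores and no E-box, Cd3g holds 2 E-boxes and no ETS core, and Cd3d holds 1 of each. Prf1 holds 2 ETS cores, 1 RUNX core and 4 E-boxes, and none of the 3 CD3 windows has a RUNX core. Of the genes that fell and are not shown, Cd247 holds 1 ETS core and 1 E-box. Nkg7 holds 1 ETS core, 1 RUNX core and 2 E-boxes. These are common letters, since 29.5% of 32851 promoter windows of that length hold the ETS core, 14% the RUNX core and 44.8% the E-box. The matches describe the sequence and are no evidence of binding.

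Library totals ran from 5552954 to 34362477 counts, so that 3 counts correspond to between 0.0846 and 0.764 CPM (counts scaled to the TMM-adjusted library size). The labels do not say whether libraries of a group came from separate animals, so p-values measure the spread between these samples. Cre-negative imiquimod replicate 2 and knockout DMSO replicate 1 had the largest shares of 18S ribosomal RNA, which ran from 3.84% to 19.1%. By Xist and Y-linked genes 8 libraries are female and 6 male. All wild-type and knockout DMSO libraries are female, all knockout and Cre-negative imiquimod libraries are male, and Cre-negative DMSO skin has 2 male libraries and 1 female. Nedd8 itself, the targeted gene, averaged 229 ± 112 CPM in knockout and 388 ± 104 CPM in Cre-negative imiquimod skin (SD, n = 2 each), and 226 ± 129 and 313 ± 40.0 CPM in knockout and Cre-negative DMSO skin (n = 3 each), and neither difference passed the threshold (edgeR adjusted p = 0.33 and 0.40). The deposited values do not say whether the counted 3′ end lies in the deleted segment. The epidermal and dermal genes Krt5, Krt14 and Col1a1 were present in all libraries. Of 11 tested genes of keratinocytes, dermis and muscle 2 rose and 4 fell in knockout against Cre-negative DMSO skin. Among all genes tested 14% rose and 15.7% fell. Log2 fold changes were 2.65 for Krt14, -7.53 for Krt10 and -2.335, -3.39 and -3.22 for the muscle genes Acta1, Ckm and Myh4. These muscle genes also fell with imiquimod in Cre-negative skin. The part of tissue make-up in the results below was not tested.

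Knockout skin treated with DMSO was compared with Cre-negative skin treated with DMSO to describe these genes without imiquimod. K14-CreERT and the labelled induction belong to knockout skin only, so loss of NEDD8, Cre and induction cannot be told apart. The groups also differ in sex. All 4 CD3 chain genes, Prf1 and Nkg7 fell, with fitted folds between 9.85 for Cd247 and 49.1 for Prf1. Trbc2 and Trdc were not lower: both had values in every knockout library above those of every Cre-negative library, and neither passed the threshold. Thus 6 of the 8 tested genes fell and 0 rose, where 15.7% of all genes tested fell, 14% rose and 29.6% changed in either direction. The median over the 8 log2 fold change was -4.09, against -0.06 for all genes tested.

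Cd3d, the CD3 delta chain, had 0.764, 0.194 and 0.197 CPM in the 3 knockout DMSO libraries, against 3.91, 3.50 and 2.91 CPM in the 3 Cre-negative DMSO libraries. Cd3e, the epsilon chain, had 0, 0.0971 and 0.0846 CPM in knockout skin, against 4.19, 2.35 and 2.33 CPM in Cre-negative skin. Cd3g, the gamma chain, had 0, 0.194 and 0 CPM in knockout skin, against 2.57, 1.37 and 2.91 CPM in Cre-negative skin. In each gene the highest knockout library was below the lowest Cre-negative library, and the knockout values rest on few reads (12 counts of Cd3d, 4 of Cd3e and 2 of Cd3g over 3 libraries). Cd247, the zeta chain, had 0.255, 0.873 and 0.479 CPM in knockout skin, against 7.32, 5.03 and 4.59 CPM in Cre-negative skin, again without overlap.

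The log2 fold changes were -3.60 ± 0.71 for Cd3d (standard error, adjusted p = 0.0024 by edgeR's quasi-likelihood test), -5.09 ± 0.86 for Cd3e (edgeR adjusted p = 0.00083), -5.38 ± 1.06 for Cd3g (edgeR adjusted p = 0.0024) and -3.30 ± 0.55 for Cd247 (edgeR adjusted p = 0.00075). The fitted value of Cd3g depends on the prior count of the model, because knockout skin held 2 counts against 111 in Cre-negative skin. From those counts Cd3g was 55.3-fold lower in knockout skin, with a 95% interval of 15.0 to 462 that covers counting error only. With female libraries only, which leaves 1 Cre-negative library, Cd3d had an adjusted p of 0.056 and the other 3 chains still passed. These are whole-tissue values, so fewer cells of a type and less RNA per cell cannot be told apart here or in the results that follow.

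Of the cytotoxic genes, Prf1 had 0, 0 and 0.113 CPM in knockout DMSO libraries, against 4.58, 2.85 and 4.59 CPM in Cre-negative DMSO libraries. Nkg7 had 0.255, 0 and 0.141 CPM in knockout skin, against 3.35, 2.68 and 2.91 CPM in Cre-negative skin. Neither gene overlapped between the groups, and all 6 genes that fell had every knockout library below every Cre-negative library, as in 26.5% of all genes tested. Prf1 fell by 5.62 ± 0.65 on the log2 scale (edgeR adjusted p = 5.8e-05) and Nkg7 fell by 4.58 ± 0.89 (edgeR adjusted p = 0.0022). The knockout values rest on 4 counts of Prf1 and 6 of Nkg7 over 3 libraries, so the sizes of both changes are known only loosely. Over the alternative settings the log2 fold change of Prf1 ran from -8.75 to -5.26. Gzmb was near the limit of detection, with 0, 0 and 8 counts in knockout libraries and 0, 0 and 3 counts in Cre-negative libraries, and the 8 counts come from the deepest library.

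**Figure D1:**
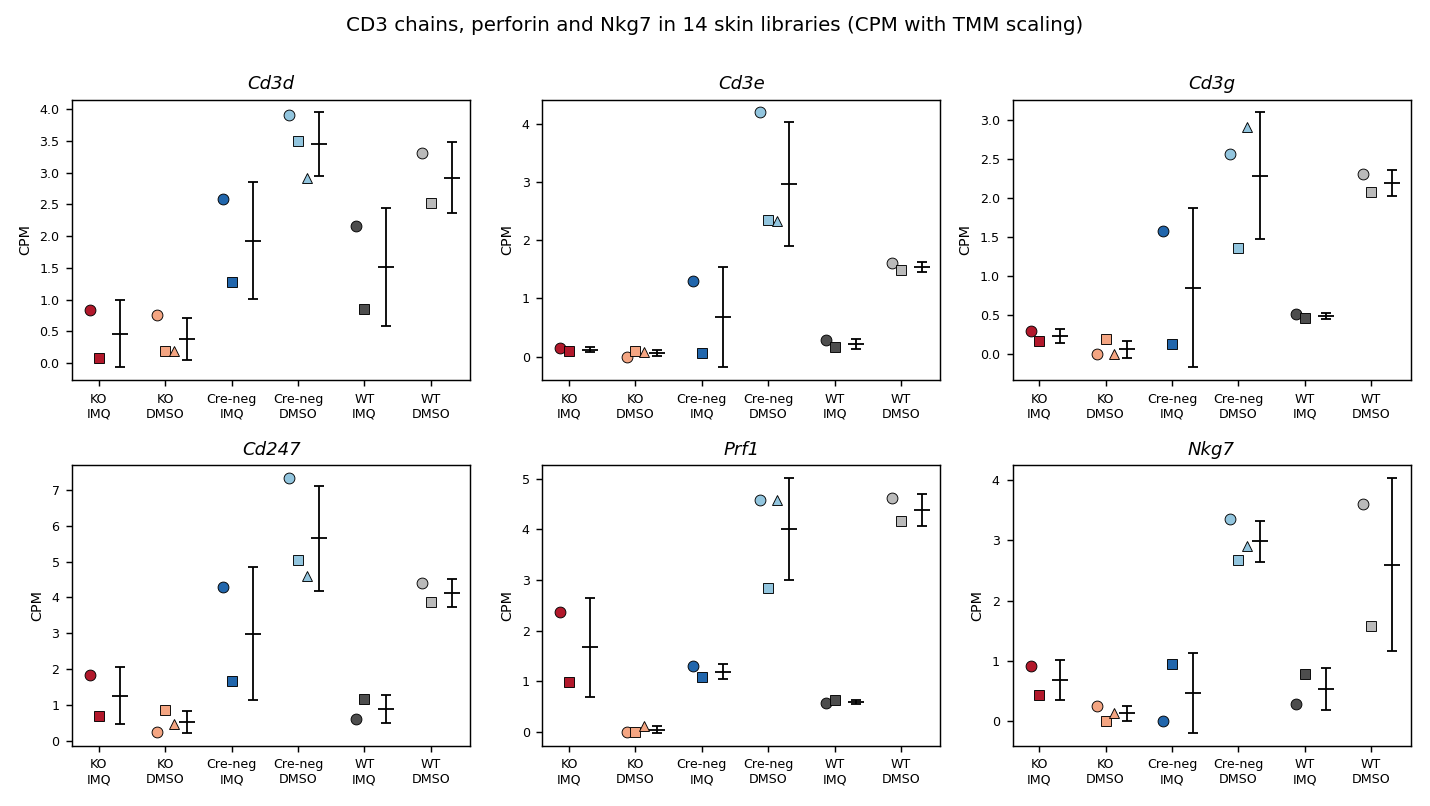
CPM of the 4 CD3 chain genes, Prf1 and Nkg7 (y axes, linear, 1 panel per gene) in the 6 groups (x axis; KO, knockout; Cre-neg, Cre-negative; WT, wild type; IMQ, imiquimod). Points are libraries (circle, square and triangle for replicates 1, 2 and 3), and bars are the group mean and SD. In knockout DMSO skin every library is below 1 CPM in all 6 genes, and Prf1 is higher in both knockout imiquimod libraries than in any knockout DMSO library.

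Trdc and Trbc2, both constant regions of receptor chains, were higher in every knockout library. Trdc, the constant region of the delta chain, had 7.90, 12.1 and 7.75 CPM in knockout DMSO libraries, against 5.65, 4.65 and 4.30 CPM in Cre-negative DMSO libraries. Its log2 fold change was 0.93 ± 0.44 (edgeR adjusted p = 0.13), with a 95% interval of -0.01 to 1.87. It passed the threshold in 5 of 26 alternative settings and was higher in knockout skin in all 26. Trbc2, a constant region of the beta chain, had 27.8, 20.9 and 36.9 CPM in knockout skin, against 20.1, 15.6 and 19.2 CPM in Cre-negative skin. Its log2 fold change was 0.64 ± 0.31 (edgeR adjusted p = 0.14), with an interval of -0.03 to 1.31. For both genes every knockout library was above every Cre-negative library, as in 21.8% of all genes tested.

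Trac, the constant region of the alpha chain, had 2 counts in all 14 libraries, both in Cre-negative DMSO replicate 3. Its counted gene model has 3 exons and 413 bases, of which the last exon has 107. In the GENCODE vM21 annotation a further Trac transcript has 4 exons, 935 bases and a last exon of 521 bases, which the counted model lacks. By contrast, the counted model of Trdc has 4 exons and 3865 bases, with 3403 in the last exon. A 3′ tag method reads the end of a transcript, so a Trac value near 0 in every group, including those with CD3 counts, says nothing about alpha-beta T cells here.

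Other segments of the gamma-delta receptor did not move with Trdc. Trgc1, a constant region of the gamma chain, had 0, 0.776 and 0.0282 CPM in knockout DMSO libraries, against 5.31, 3.94 and 2.92 CPM in Cre-negative DMSO libraries, and fell (log2 fold change -4.02 ± 1.01, edgeR adjusted p = 0.011). Trdv4, a variable segment of the delta chain, had 0, 0.194 and 0 CPM in knockout skin, against 1.85, 0.930 and 0.947 CPM in Cre-negative skin, and also fell (edgeR adjusted p = 0.013). Trgc2, another gamma constant region, had 2 counts in knockout skin against 48 in Cre-negative skin and fell (edgeR adjusted p = 0.0020). Trgc1 and Trdv4 lost the call with a term for sex, Trdv4 also without knockout DMSO replicate 3, and all 3 with female libraries only. Of 9 tested gamma-delta genes 5 fell and 0 rose, where 15.7% of all genes fell, with a median log2 fold change of -3.33, and 2 to 5 fell over the alternative settings. Trbc1, the paralog of Trbc2, had 0, 0.0971 and 0.0564 CPM in knockout skin against 0.168, 0.547 and 0.802 CPM in Cre-negative skin and fell (3 against 24 counts, edgeR adjusted p = 0.025), a call lost in 7 of 26 alternatives, among them those without knockout DMSO replicate 3 or Cre-negative DMSO replicate 2 or 3. Trdv4 and Trbc1 were singled out after their values were seen. Trdc therefore went against its use as a marker of gamma-delta T cells in knockout skin, where the CD3 chains and these segments were near 0, and it is described below by its gene name alone.

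**Figure D2:**
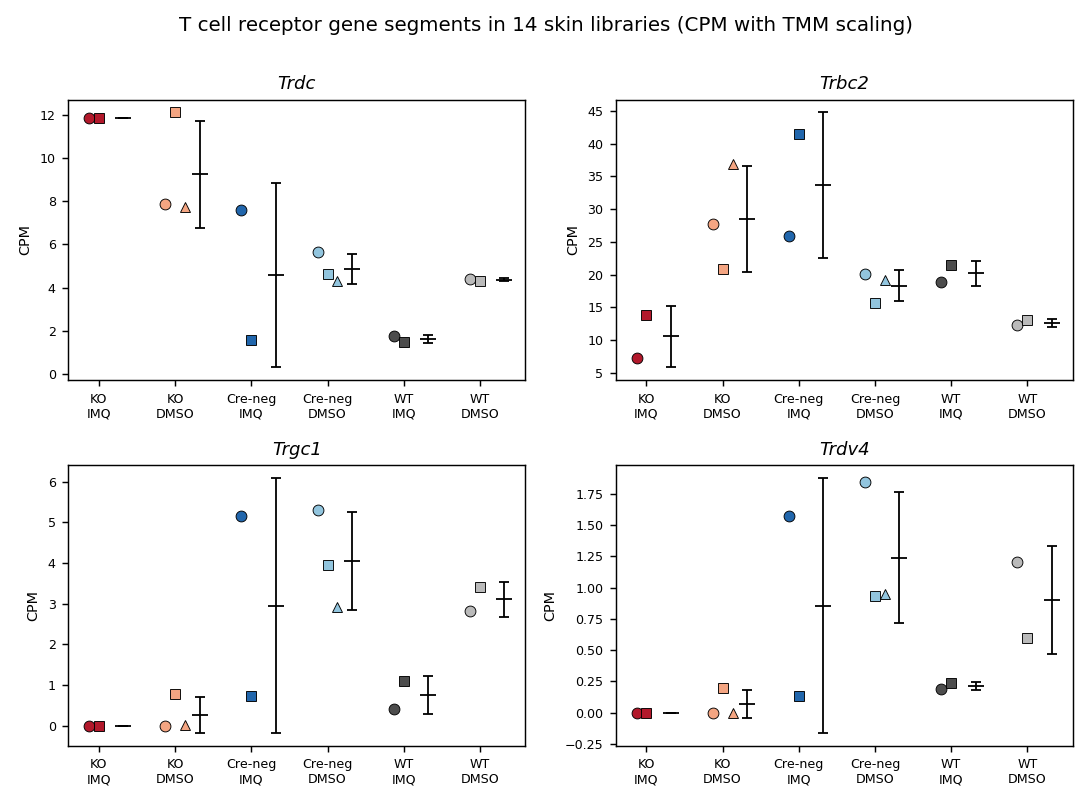
CPM of 4 receptor gene segments (y axes, linear, 1 panel per gene) in the 6 groups (x axis; abbreviations as KO, knockout; Cre-neg, Cre-negative; WT, wild type; IMQ, imiquimod), with points for libraries and bars for the mean and SD. Trdc lies between 7.75 and 12.1 CPM in the 5 knockout libraries, while Trgc1 is below 1 CPM in all of them.

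The separation of Trdc from the CD3 chains can be given within each library, where depth cancels. Of the summed counts of Trdc, Cd3d, Cd3e and Cd3g, Trdc made up 90.2% and 97.1% in the knockout imiquimod libraries and 91.2%, 96.2% and 96.5% in the knockout DMSO libraries. It made up 58.2% and 51.1% in the Cre-negative imiquimod libraries and 34.6%, 39.2% and 34.5% in the Cre-negative DMSO libraries. In wild-type skin the share was 37.0% and 50.0% with imiquimod and 37.9% and 41.4% with DMSO. The lowest lower bound of the exact 95% intervals (Clopper-Pearson) in knockout skin, 76.3%, was above the highest upper bound in the other groups, 68.5%. Shares are compared between libraries and not as levels of different genes. Trdc and Trbc2 stood at 23.9 and 90.7 counts per CD3 count in the pooled knockout DMSO libraries, against 0.563 and 2.09 in the pooled Cre-negative DMSO libraries.

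**Figure D3:**
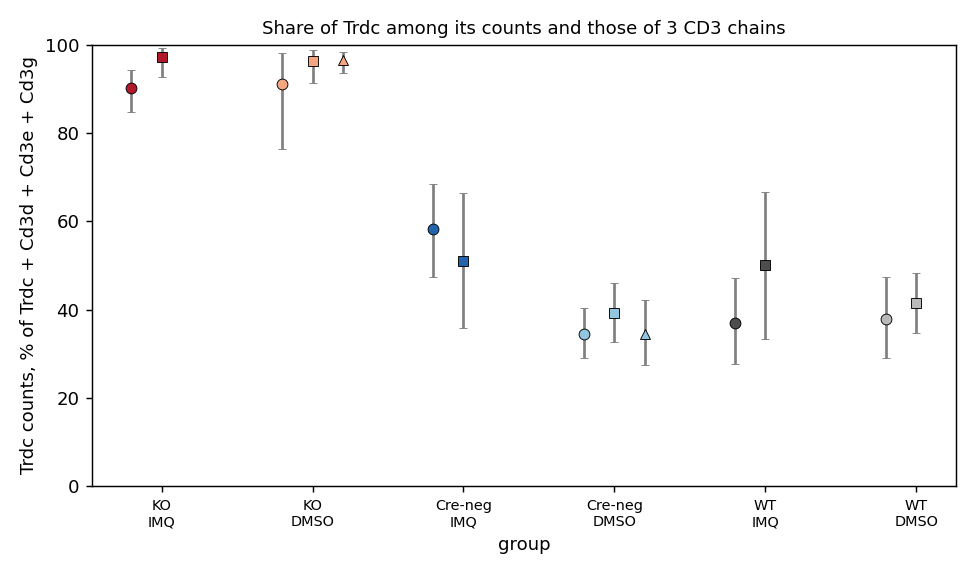
Counts of Trdc as a percentage of the counts of Trdc, Cd3d, Cd3e and Cd3g together (y axis) in each library of the 6 groups (x axis; KO, knockout; Cre-neg, Cre-negative; WT, wild type; IMQ, imiquimod). Bars are exact 95% intervals of counting error. The 5 knockout libraries lie at 90.2% or above and the 9 others at 58.2% or below.

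Knockout DMSO skin was also set against wild-type DMSO skin, in which all libraries are female. The same knockout libraries enter both comparisons, so the second is not independent of the first. The wild-type libraries had 3.31 and 2.52 CPM of Cd3d, 1.61 and 1.49 CPM of Cd3e, 2.31 and 2.08 CPM of Cd3g and 4.41 and 3.86 CPM of Cd247. They had 4.61 and 4.16 CPM of Prf1 and 3.61 and 1.58 CPM of Nkg7. Every one of these values was above every knockout DMSO value of its gene, as in 29.6% of all genes tested.

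Against wild-type skin the log2 fold changes were -3.35 ± 0.75 for Cd3d (edgeR adjusted p = 0.0060), -4.15 ± 0.92 for Cd3e, -5.33 ± 1.11 for Cd3g, -2.85 ± 0.58 for Cd247, -5.75 ± 0.67 for Prf1 (edgeR adjusted p = 8.5e-05) and -4.36 ± 0.94 for Nkg7. Thus 6 of the 8 tested genes fell, where 14.4% of all genes tested fell, and all 6 passed in each of 25 alternative settings. Cd3g had 2 counts against 65 in wild-type skin, a 53.5-fold lower value with a counting interval of 14.2 to 452. Trbc2 had 12.24 and 13.02 CPM in wild-type skin and was the 1 gene that rose in knockout skin (log2 fold change 1.18 ± 0.36, edgeR adjusted p = 0.030), where 11.3% of all genes rose. That call was lost without knockout DMSO replicate 3 (adjusted p = 0.10) and without wild-type DMSO replicate 1 or 2 (0.17 and 0.13), with library size alone (0.23) and with the replicate block (0.066). Trdc had 4.41 and 4.31 CPM in wild-type skin, below all knockout values, as was Trbc2 and as were 24.2% of all genes tested, and did not pass (log2 fold change 1.09 ± 0.51, edgeR adjusted p = 0.13).

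Between Cre-negative and wild-type DMSO skin 0 of the 8 genes passed, as did 0 of all 16027 genes in edgeR's test. At an unadjusted p below 0.05, 1120 genes and 0 of the 8 differed, and DESeq2 and limma voom called 144 and 195 genes. The lowest unadjusted p among the 8, 0.15 by edgeR, belonged to Trbc2, which averaged 18.3 CPM in Cre-negative and 12.6 CPM in wild-type skin. Trbc2, Cd3e and Cd247 had every Cre-negative library above every wild-type library, as in 16.1% of all genes tested.

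Of 20 tested genes of T cell receptor signalling, 10 fell and 1 rose in knockout against Cre-negative DMSO skin, where 15.7% of all genes fell and 14% rose, with a median log2 fold change of -1.83 against -0.06 for all genes. Across 26 alternative settings 4 to 13 of them fell. Trat1, an adaptor that binds the CD3 complex, had 0.509, 0 and 0.0846 CPM in knockout skin against 5.03, 3.61 and 4.30 CPM in Cre-negative skin (log2 fold change -5.19 ± 0.72, edgeR adjusted p = 0.00021). Grap2, an adaptor downstream of the receptor, fell by 4.47 ± 0.64 on the log2 scale, and Cd2, an adhesion receptor of T cells, fell by 2.87 ± 0.49. Prkcq, the kinase PKC theta, fell by 2.08 on the log2 scale. Lat, the membrane adaptor phosphorylated by Zap70, was the 1 gene that rose, with 3.06, 1.84 and 3.35 CPM in knockout skin against 0.783, 0.602 and 1.24 CPM in Cre-negative skin, and it lost the call in 7 of 26 alternatives, among them those without knockout DMSO replicate 3 or Cre-negative DMSO replicate 1 or 2. It is named after its values were seen.

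Genes of resident epidermal T cells fell in part. Of 12 tested genes, 5 fell and 0 rose in knockout against Cre-negative DMSO skin, where 15.7% of all genes fell and 14% rose, with a median log2 fold change of -1.42 and a range of 2 to 6 falling over the alternative settings. Cd7, a surface protein of T and NK cells, had 3.57, 1.36 and 3.04 CPM in knockout skin against 22.0, 13.3 and 17.2 CPM in Cre-negative skin (log2 fold change -2.75 ± 0.41, edgeR adjusted p = 0.00038). Il2rb, a receptor chain for IL-2 and IL-15, fell by 2.88 ± 0.49 on the log2 scale, and Klrk1, which encodes the activating receptor NKG2D, fell by 3.92 ± 0.71. Xcl1, a chemokine made by T and NK cells, had 3 counts in the 3 knockout libraries and 0.821 to 1.75 CPM in the Cre-negative libraries, and it fell (edgeR adjusted p = 0.0033).

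Of 14 tested genes that encode keratinocyte and dendritic cell signals to skin T cells, 5 fell and 1 rose in the same comparison, where 15.7% of all genes fell and 14% rose, with a median log2 fold change of -1.82. Over the alternatives 3 to 8 fell and 0 to 4 rose. Skint1, which is required for the selection of dendritic epidermal T cells in the thymus, had 0, 0.291 and 0.310 CPM in knockout skin against 6.65, 11.2 and 16.9 CPM in Cre-negative skin (log2 fold change -5.42 ± 0.80, edgeR adjusted p = 0.00042). Il15, a survival factor of these cells, had 0.764, 1.26 and 0.902 CPM in knockout skin against 2.68, 2.63 and 5.61 CPM in Cre-negative skin (log2 fold change -1.86 ± 0.49, edgeR adjusted p = 0.012), a call lost without knockout DMSO replicate 3 or Cre-negative DMSO replicate 3. Ccl27a, a keratinocyte chemokine that attracts skin T cells, fell by 4.60 ± 0.45 on the log2 scale. H60c, a keratinocyte ligand of NKG2D, had 237, 187 and 176 CPM in knockout skin against 101, 97.0 and 86.1 CPM in Cre-negative skin and rose (log2 fold change 1.08 ± 0.34, edgeR adjusted p = 0.030), a call lost in 9 of 26 alternatives, among them those without each of knockout DMSO replicates 1 and 2 and each Cre-negative DMSO library. It was named after its values were seen.

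Pan-leukocyte and Langerhans cell genes were also lower in knockout than in Cre-negative DMSO skin, and mast cell genes were not. Of 10 pan-leukocyte genes, 8 fell against Cre-negative DMSO skin, with a median log2 fold change of -1.27, and their summed level was 101 to 138 CPM in knockout and 278 to 402 CPM in Cre-negative libraries. Ptprc, which encodes CD45, fell by 1.26 ± 0.34 on the log2 scale (edgeR adjusted p = 0.015), a call lost without knockout DMSO replicate 3 or Cre-negative DMSO replicate 3. Of 10 Langerhans cell genes 9 fell, and Cd207, which encodes langerin, had 0 counts in all 3 knockout libraries against 4.93 to 14.2 CPM in Cre-negative libraries. The 8 pan-leukocyte falls became 5 without the libraries highest in 18S RNA and 2 under the alternative that kept fewest. Against wild-type DMSO skin, with sums of 163 to 209 CPM, the median log2 fold change was -0.55, and at most 2 of the 10 passed under any setting. Mast cell genes summed to 47.9 to 66 CPM in knockout and 11.7 to 23.4 CPM in Cre-negative DMSO libraries, and of 8 tested 1 rose (Hdc, which makes histamine, by 3.67 ± 0.37 on the log2 scale) and 0 fell. Of 4 tested B and plasma cell genes 1 rose and 1 fell. Of 12 tested granule genes 4 fell and 2 rose, and the 2 that rose were the chemokine genes Ccl4 and Ccl3 (log2 fold changes 5.32 and 6.52). Of 10 tested NK and innate lymphoid genes 4 fell (Klrd1, Gata3, Rora and Id2) and 0 rose. Of 7 tested CD4, CD8 and regulatory T cell genes 1 fell and 0 rose, where 15.7% of all genes fell and 14% rose. The part of these cells in the fall of Prf1 and Nkg7 was not tested. Ncr1, a defining receptor of NK cells, was at 0 in knockout DMSO and at 0 to 0.0559 CPM in Cre-negative DMSO skin, and Foxp3 did not exceed 0.390 CPM in any library.

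The CD3 chains were also set against the pan-leukocyte genes within each library. Per 1000 counts of the 10 pan-leukocyte genes, Cd3d, Cd3e and Cd3g together had 5.52, 3.56 and 2.79 counts in knockout DMSO libraries, against 38.4, 25.7 and 20.3 in Cre-negative DMSO libraries and 34.6 and 37.4 in wild-type DMSO libraries. Prf1 had 0, 0 and 1.11 counts per 1000 in knockout skin, against 16.5, 10.1 and 11.4 in Cre-negative skin. The knockout libraries were below the others in both measures. No test was made on these ratios.

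Imiquimod was compared with DMSO within each genotype. In Cre-negative skin the CD3 chains were lower on average, with wide spread between the 2 imiquimod libraries. Cd3d had 2.58 and 1.28 CPM with imiquimod against the 2.91 to 3.91 CPM with DMSO, and Cd247 had 4.30 and 1.68 CPM against 4.59 to 7.32 CPM. Cd3e had 1.29 and 0.0673 CPM with imiquimod, and Cd3g had 1.58 and 0.135 CPM, so that replicate 2 had almost none of either. The log2 fold changes lay between -0.88 for Cd3d and -2.36 ± 0.80 for Cd3e, and the nearest to the threshold was Cd3e (edgeR adjusted p = 0.055).

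Prf1 was the 1 gene of the 8 that passed in Cre-negative skin, where 10.1% of all genes tested fell and 8.15% rose, 18.2% in all. It had 1.29 and 1.08 CPM with imiquimod, against 4.58, 2.85 and 4.59 CPM with DMSO (log2 fold change -1.77 ± 0.54, edgeR adjusted p = 0.037). That call passed in 14 of 25 alternatives and was lost when any Cre-negative or wild-type DMSO library or either Cre-negative imiquimod library was left out (adjusted p 0.052 to 0.21). Nkg7 had 0 and 0.942 CPM with imiquimod and did not pass (log2 fold change -2.41 ± 0.84, edgeR adjusted p = 0.061). Gzmb had 4 and 7 counts with imiquimod against 0, 0 and 3 with DMSO, 8.38-fold higher per count of depth with an interval of 2.21 to 46.8 for counting error alone. Trbc2 had 25.8 and 41.5 CPM with imiquimod, above all DMSO libraries, and did not pass (log2 fold change 0.88 ± 0.34, edgeR adjusted p = 0.089). Trdc had 7.60 and 1.55 CPM with imiquimod, on either side of the DMSO values of 4.30 to 5.65 CPM, and its log2 fold change of -0.14 ± 0.50 was 0.64 without replicate 2 (edgeR adjusted p = 0.35) and -1.55 without replicate 1 (edgeR adjusted p = 0.043).

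Other T cell genes passed in both directions in Cre-negative skin. Of 9 tested gamma-delta genes 3 rose and 1 fell with imiquimod, of 7 tested CD4, CD8 and regulatory T cell genes 3 rose and 1 fell, and of 12 tested resident epidermal T cell genes 0 rose and 2 fell, where 8.15% of all genes rose and 10.1% fell. Il17f had 4.73 and 3.03 CPM with imiquimod against 0 to 0.364 CPM with DMSO and rose (log2 fold change 5.08 ± 1.03, edgeR adjusted p = 0.0065). Il17a had 1.44 and 1.82 CPM with imiquimod against 0 counts in all 3 DMSO libraries and also rose (edgeR adjusted p = 0.0014). Icos rose by 3.01 ± 0.56 on the log2 scale (edgeR adjusted p = 0.0027). Cd7 fell by 3.45 ± 0.51 on the log2 scale (edgeR adjusted p = 0.00068). Of 10 pan-leukocyte genes 0 rose and 0 fell, with at most 2 rising or 1 falling over the alternative settings.

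In wild-type skin 3 of the 8 tested genes fell with imiquimod and 0 rose, where 11.8% of all genes fell, 9.59% rose and 21.4% changed in either direction. Cd3e had 0.283 and 0.156 CPM with imiquimod, against 1.61 and 1.49 CPM with DMSO (log2 fold change -2.71 ± 0.87, edgeR adjusted p = 0.041). Cd247 had 0.612 and 1.17 CPM, against 4.41 and 3.86 CPM (log2 fold change -2.24 ± 0.62, edgeR adjusted p = 0.021). Prf1 had 0.565 and 0.623 CPM, against 4.61 and 4.16 CPM (log2 fold change -2.87 ± 0.59, edgeR adjusted p = 0.0052). The imiquimod libraries were below the DMSO libraries in all of Cd3d, Cd3e, Cd3g, Cd247, Prf1, Nkg7 and Trdc, as in 34.3% of all genes tested. Trdc had 1.74 and 1.48 CPM with imiquimod against 4.41 and 4.31 CPM with DMSO and did not pass (log2 fold change -1.43 ± 0.56, edgeR adjusted p = 0.085).

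These calls in wild-type skin rest on 2 libraries a group. Without wild-type imiquimod replicate 1, which leaves 1 library assumed to vary like the other groups, 0 of the 8 passed, with adjusted p-values of 0.14 for Cd3e, 0.17 for Cd247 and 0.057 for Prf1. Without wild-type DMSO replicate 1 or 2, Prf1 alone passed, and Cd247 had an adjusted p of 0.078 or 0.067. Without either Cre-negative imiquimod library, which changes the shared estimate of the spread, 5 of the 8 passed. Cd3e was lost in 12 of 25 alternatives, with adjusted p-values up to 0.14. The difference between the imiquimod responses of wild-type and Cre-negative skin was tested directly, and 0 of the 8 genes passed by edgeR (lowest unadjusted p = 0.11), as did 0 of all genes. At an unadjusted p below 0.05, 1466 genes and 0 of the 8 differed, and DESeq2 and limma voom called 50 and 0 genes.

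In knockout skin Prf1 moved the other way. It had 2.36 and 0.974 CPM with imiquimod, against 0, 0 and 0.113 CPM with DMSO, and rose (log2 fold change 4.37 ± 0.70, edgeR adjusted p = 0.0015), where 8.56% of all genes tested rose and 11.1% changed in either direction. The knockout DMSO libraries are those of the comparison above, so low values there enter both results. Prf1 passed in all 25 alternatives, including a term for sex. That term rests on Cre-negative DMSO skin, the only group with both sexes. Knockout imiquimod libraries are male and knockout DMSO libraries female, so sex and imiquimod cannot be told apart there. Nkg7 had 0.913 and 0.443 CPM with imiquimod, above the DMSO values of 0 to 0.255 CPM, and did not pass (log2 fold change 2.47 ± 1.02, edgeR adjusted p = 0.14). Gzmb had 5 and 11 counts with imiquimod against 0, 0 and 8 with DMSO, and at 0.380 and 0.974 CPM both imiquimod libraries were above the highest DMSO library, at 0.225 CPM.

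Prf1, Nkg7 and Gzmb had both imiquimod libraries above all DMSO libraries, as did 22.5% of all genes tested.

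Of the CD3 chains, 0 of 4 passed the threshold in knockout skin. Cd3d had 0.837 and 0.0886 CPM with imiquimod in knockout skin, a range that takes in all 3 DMSO libraries. Cd3e had 0.152 and 0.0886 CPM, Cd3g had 0.304 and 0.177 CPM and Cd247 had 1.83 and 0.708 CPM. Their log2 fold changes against knockout DMSO skin lay between 0.58 ± 1.25 for Cd3e and 2.20 ± 1.37 for Cd3g. At 3 and 4 counts of Cd3e the change of this gene could be measured only loosely, with a ratio of 1.53 and a counting interval of 0.224 to 9.02.

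Trbc2 fell with imiquimod in knockout skin, to 7.23 and 13.9 CPM, against 27.8, 20.9 and 36.9 CPM with DMSO (log2 fold change -1.44 ± 0.37, edgeR adjusted p = 0.023), where 2.52% of all genes tested fell and 18.9% had both imiquimod libraries below all DMSO libraries. The call was lost without knockout imiquimod replicate 1 and without knockout DMSO replicate 3 (edgeR adjusted p = 0.095 for the latter). It was also lost with a sex term (edgeR adjusted p = 0.45), with library size alone (0.089), with only the groups compared and with the replicate block. Trdc had 11.9 CPM in both imiquimod libraries, within the range of the DMSO libraries. Trbc2 has a near-identical paralog, Trbc1, and how reads that match both were counted is not given, so levels of either gene are uncertain.

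Markers of other leukocytes rose in the same libraries. The counts that follow stand beside 8.56% of all genes tested that rose and 2.52% that fell. All 10 pan-leukocyte genes rose with imiquimod in knockout skin, with a median log2 fold change of 3.82 (8 to 10 rose over the alternatives), and their summed level was 949 to 2330 CPM with imiquimod and 101 to 138 CPM with DMSO. Of 12 tested resident epidermal T cell genes 6 rose and 0 fell (1 to 7 rose over the alternatives). The 6 were Cd69, Fcer1g, Cd244a, Jaml, Ctla2a and Rgs1. None of them was among the 5 that fell in knockout against Cre-negative DMSO skin. The CD3 chains did not pass with them, and which cells carried the genes that rose was not tested. Of 12 tested granule and cytotoxic genes 7 rose and 0 fell, with a median log2 fold change of 2.54. The 7 included the chemokine genes Ccl3, Ccl4 and Ccl5. Gzma, a granzyme of T and NK cells, had 16.5 and 9.83 CPM with imiquimod against 0.0971 to 0.255 CPM with DMSO (log2 fold change 6.16 ± 0.75, edgeR adjusted p = 0.00026), and Srgn, the proteoglycan core that packs granules in many leukocytes, rose by 4.85 ± 0.52 on the log2 scale. Of 10 tested NK and innate lymphoid genes 3 rose and 1 fell. Klrb1c, which encodes NK1.1, was among those that rose, at 2.21 and 0.797 CPM against 0 to 0.509 CPM (edgeR adjusted p = 0.032). Its call was lost in 7 of 25 alternatives, among them a sex term and those without knockout imiquimod replicate 1 or knockout DMSO replicate 2 or 3. Ncr1 had 0.380 and 0.177 CPM with imiquimod and 0 with DMSO. The part of NK cells or other leukocytes in the rise of Prf1 was not tested.

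Set against leukocyte counts, Prf1 overlapped between imiquimod and DMSO. Per 1000 pan-leukocyte counts Prf1 had 1.01 and 1.03 counts in knockout imiquimod libraries, against 0, 0 and 1.11 in knockout DMSO libraries. The CD3 chains Cd3d, Cd3e and Cd3g had 0.555 and 0.373 counts per 1000 with imiquimod, below each of the 5.52, 3.56 and 2.79 with DMSO. In Cre-negative imiquimod libraries the CD3 chains had 19.0 and 3.66 counts per 1000, and in wild-type imiquimod libraries 6.94 and 5.36. Knockout imiquimod skin thus had the most leukocyte counts and the fewest CD3 counts among them.

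**Figure D4:**
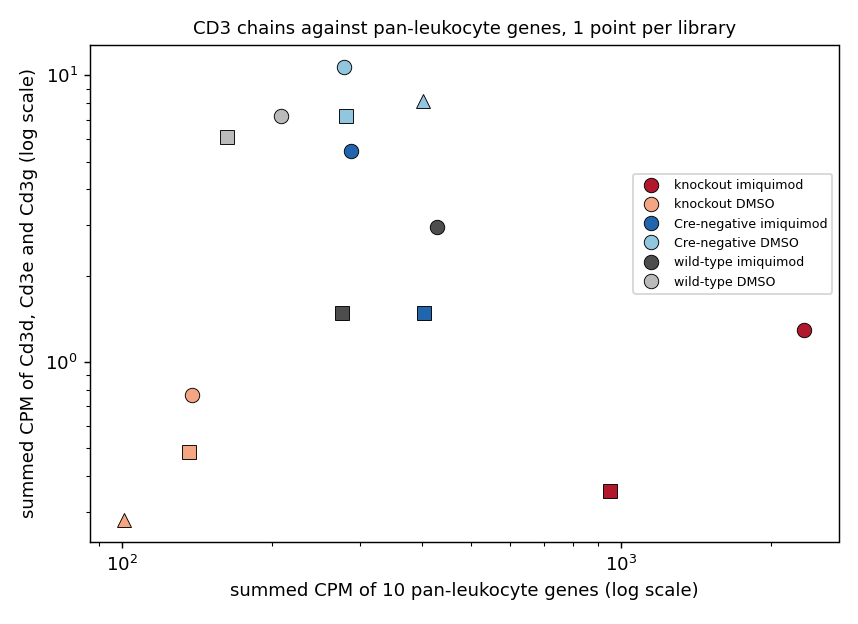
Summed CPM of Cd3d, Cd3e and Cd3g (y axis, log scale) against the summed CPM of 10 pan-leukocyte genes (x axis, log scale) in 14 libraries, coloured by group, with circle, square and triangle for replicates 1, 2 and 3. The knockout imiquimod libraries lie at 949 and 2330 CPM on the x axis with 0.354 and 1.29 CPM of CD3 chains, and the Cre-negative DMSO libraries lie at 278 to 402 CPM with 7.22 to 10.7 CPM.

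Knockout and Cre-negative skin were compared directly under imiquimod. Of the 8 tested genes Trbc2 fell, where 6.33% of all genes fell, 11.6% rose and 17.9% changed in either direction. Trbc2 had 7.23 and 13.9 CPM in knockout libraries against 25.8 and 41.5 CPM in Cre-negative libraries (log2 fold change -1.68 ± 0.39, edgeR adjusted p = 0.011). This call was lost without knockout imiquimod replicate 1 (adjusted p = 0.13), without Cre-negative imiquimod replicate 2 (0.099) and with library size alone (0.081). Cd3d was lower in both knockout libraries, at 0.837 and 0.0886 CPM against 2.58 and 1.28 CPM, and did not pass (log2 fold change -1.96 ± 0.80, edgeR adjusted p = 0.11). Trdc was higher in both, at 11.9 and 11.9 CPM against 7.60 and 1.55 CPM, and did not pass (log2 fold change 1.42 ± 0.55, edgeR adjusted p = 0.093). Cd3d and Trbc2 had both knockout libraries below both Cre-negative libraries, as in 25.3% of all genes tested, and Trdc had both above, as in 30.7%. Prf1 overlapped between the groups, with a log2 fold change of 0.52 ± 0.58 and a 95% interval of -0.74 to 1.77.

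Other gene groups passed in both directions in this comparison. Of 12 tested resident epidermal T cell genes 5 rose and 0 fell, of 12 tested granule genes 5 rose and 0 fell, and of 10 pan-leukocyte genes 8 rose and 0 fell, where 11.6% of all genes rose and 6.33% fell. Over the alternatives 1 to 5, 3 to 6 and 2 to 8 of these rose. The 5 resident epidermal T cell genes that rose were Cd69, Fcer1g, Cd244a, Jaml and Ctla2a. The 5 granule genes that rose included the chemokine genes Ccl3 and Ccl4. Of 20 tested genes of T cell receptor signalling 2 rose and 5 fell, and Trat1, Grap2 and Prkcq were among those that fell. Of 7 tested CD4, CD8 and regulatory T cell genes 0 rose and 4 fell. Several of these calls were lost in alternative settings. Of the 4 CD3 chains 0 passed, and which cells carried the genes that rose was not tested. Trgc1 and Trdv4 had 0 counts in both knockout imiquimod libraries, against 5.17 and 0.740 CPM of Trgc1 and 1.58 and 0.135 CPM of Trdv4 in Cre-negative imiquimod libraries (edgeR adjusted p = 0.014 and 0.048). Il17a, a cytokine that gamma-delta T cells make in imiquimod-treated skin, had 0 counts in both knockout libraries against 1.44 and 1.82 CPM in Cre-negative libraries (edgeR adjusted p = 0.0052), and Il17f had 0 and 0.0886 CPM against 4.73 and 3.03 CPM (edgeR adjusted p = 0.012). In all, 4 of 9 tested gamma-delta genes fell and 0 rose. Trdv4 passed in 8 of 25 alternatives, Trgc1 lost its call in 5, among them those without either knockout imiquimod library or Cre-negative imiquimod replicate 1, and Il17a and Il17f lost theirs without knockout imiquimod replicate 1 and Il17f also without Cre-negative imiquimod replicate 1. Icos, a costimulatory receptor of activated T cells, had 1.22 and 0.797 CPM in knockout against 17.8 and 5.32 CPM in Cre-negative skin (log2 fold change -3.49 ± 0.67, edgeR adjusted p = 0.0041). Trbc1 had 0.152 and 0.0886 CPM in knockout against 0.861 and 2.49 CPM in Cre-negative skin and fell (edgeR adjusted p = 0.013), a call lost in 7 of 25 alternatives, among them those without either knockout imiquimod library or Cre-negative imiquimod replicate 2.

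The difference between the 2 responses was tested as knockout minus Cre-negative. It was positive for Prf1 (6.13 ± 0.89 on the log2 scale, edgeR adjusted p = 0.0010) and Nkg7 (4.88 ± 1.31, edgeR adjusted p = 0.018) and negative for Trbc2 (-2.32 ± 0.50, edgeR adjusted p = 0.0067). Thus 3 of 8 genes passed, where 23.6% of all genes did (14% positive and 9.63% negative). Prf1 passed in all 25 alternatives, with differences from 5.35 to 9.27, and its size rests on the few counts in knockout DMSO skin. Nkg7 was lost with a sex term (adjusted p = 0.059) and without knockout imiquimod replicate 1 (0.12), and Trbc2 without that same library (0.051) and with library size alone (0.073). Without Cre-negative imiquimod replicate 1, 7 of the 8 genes passed. For Cd3d, Cd3e, Cd3g and Cd247 the differences were 1.64, 2.94, 3.80 and 2.12, and 0 of these 4 passed with all libraries (edgeR adjusted p from 0.073 to 0.28).

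**Figure D5:**
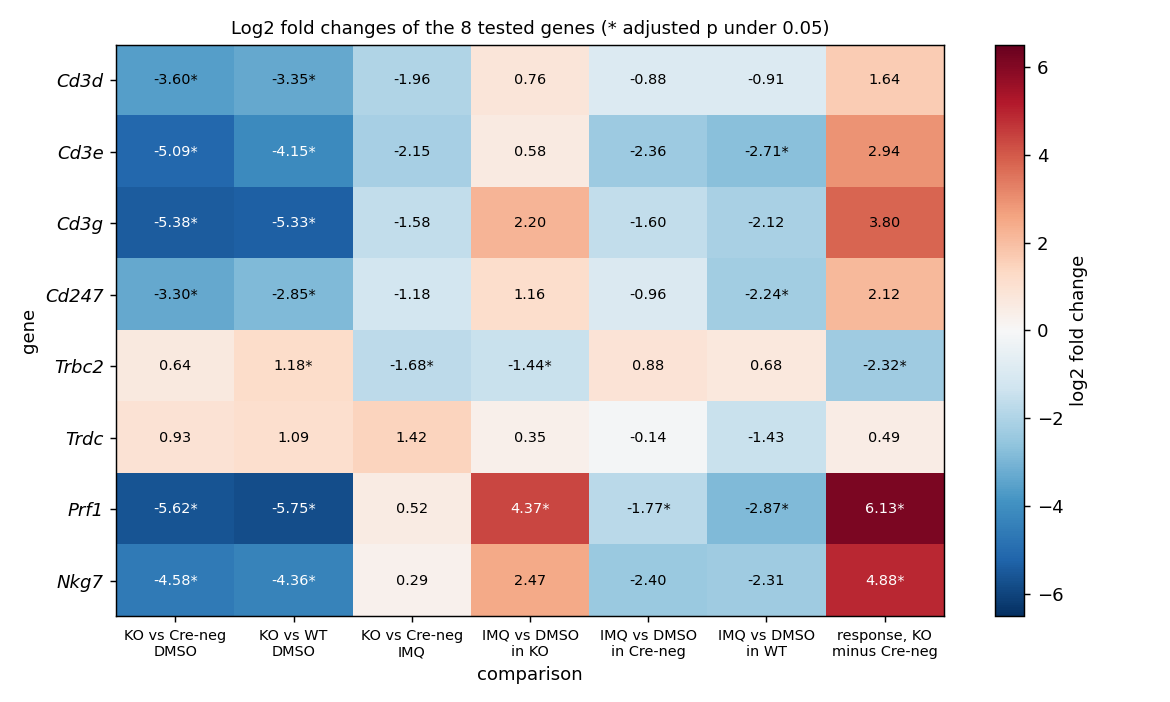
Log2 fold changes (colour and number in each cell) of the 8 tested genes (rows) in 7 comparisons (columns; KO, knockout; Cre-neg, Cre-negative; WT, wild type; IMQ, imiquimod), with * where edgeR's adjusted p was under 0.05. The 6 genes other than Trbc2 and Trdc fell in both comparisons of knockout DMSO skin, and Prf1 has the largest value of the last column, 6.13.

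Across the 6 groups the lowest mean of each CD3 chain, Prf1 and Nkg7 was that of knockout DMSO skin, and the highest means were those of Cre-negative and wild-type DMSO skin. Mean Cd3d was 0.463 CPM in knockout imiquimod, 0.385 in knockout DMSO, 1.93 in Cre-negative imiquimod, 3.44 in Cre-negative DMSO, 1.51 in wild-type imiquimod and 2.92 CPM in wild-type DMSO skin. The 2 knockout groups overlapped each other in all 4 chains, as did the Cre-negative and wild-type DMSO groups in Cd3d and Cd3g. Trdc had another order, with 11.9 CPM in knockout imiquimod and 9.26 ± 2.49 CPM in knockout DMSO skin (n = 3) against 4.58, 4.87, 1.61 and 4.36 CPM in Cre-negative imiquimod, Cre-negative DMSO, wild-type imiquimod and wild-type DMSO skin. Trbc2 was lowest in knockout imiquimod skin and highest in Cre-negative imiquimod skin.

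The genes whose pattern over the 14 libraries was most like the mean of Cd3d, Cd3e and Cd3g were Gpam, Acsm3, Pparg, Fam166b, Hlcs, Mxd4, Ano8 and Pdcd4. Pearson's r of their log2 CPM ran from 0.935 for Pdcd4 to 0.967 for Gpam and Spearman's rho from 0.890 for Pparg to 0.952 for Gpam and Mxd4, as a description over libraries that share groups and scaling. Gpam, an enzyme of glycerolipid synthesis, had 14.9 ± 3.38 CPM in knockout imiquimod skin (n = 2), 13.99 ± 2.09 in knockout DMSO (n = 3), 27.5 ± 17.2 in Cre-negative imiquimod (n = 2), 67.8 ± 18.6 in Cre-negative DMSO (n = 3), 29.5 ± 0.54 in wild-type imiquimod (n = 2) and 63.2 ± 12.8 CPM in wild-type DMSO skin (n = 2). All 8 fell in knockout DMSO skin against both Cre-negative and wild-type DMSO skin, where 15.7% and 14.4% of all genes tested fell. They were picked for likeness to the CD3 chains over these same libraries, so their fall follows from the choice and is no separate result. On the same measure Cd247 stood at r = 0.910, Prf1 at 0.828, Nkg7 at 0.654, Trdc at -0.256 and Trbc2 at -0.293.

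Exons of some of these genes overlap those of other genes, and the strand setting of the counting is not given. Cd247 overlaps Pou2f1, which runs on the opposite strand and had 5259 counts over all libraries, against 550 for Cd247. Cd3e overlaps Gm48719 (4 counts) and Trdc overlaps Gm43434 (2 counts), both on the opposite strand. Reads in the shared stretches cannot be assigned with certainty.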

How the data were processed

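RNA of 14 mouse skin libraries was counted per gene. The deposited table holds the authors' raw counts of reads per gene, not normalised, and its coordinates are those of GRCm39, per the file headers. A further deposited column holds gene lengths, which were not used in any test. The submitters' processing notes name STAR, featureCounts, DESeq2, GRCm38 and GRCm39. The sources used here give no versions, no strand setting and no treatment of reads that match several genes.

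From the counts, genes were filtered with filterByExpr (minimum count 10), which kept 16027 of 56953. They were scaled by TMM and fitted in R 4.3.3 with edgeR 4.0.16 in 1 quasi-likelihood model of 6 group means. P-values were adjusted by Benjamini-Hochberg over all genes tested, with a threshold of 0.05. Standard errors are the log2 fold change divided by the square root of F. All CPM values are counts scaled to the TMM-adjusted library size over the genes kept. The 95% intervals of log2 fold changes use the t distribution with the degrees of freedom of edgeR's test. Intervals of shares and of count ratios, and the floor of 3 counts, cover counting error only. The fit was tested on simulated data.

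The genes, lists and rules were chosen with earlier results of these data known. Of each list, up to 4 genes past the threshold with the smallest p-values were named, beside defining genes of other cell types. For some lists, further genes behind a count were named after their values were seen. For 1 gene that the rule would name, the result is not reported here. The likeness measure is the correlation with the mean of the scaled log2 CPM (prior count 2) of Cd3d, Cd3e and Cd3g. Alternatives were other scalings and filters, DESeq2 1.42.0, limma 3.58.1 (voom with sample weights), only the groups compared, a replicate block, a sex term, female libraries only, leaving out the libraries highest in 18S RNA, and leaving out each library in turn. The labels do not say that replicate numbers pair libraries. In the 3 same-number pairs of knockout and Cre-negative DMSO libraries, deviations from the group means correlated at 0.26, 0.102 and 0.166, all over 0.1. In the pairs of knockout imiquimod and knockout DMSO libraries they correlated at 0.317 and 0.121. Pairing is thus possible in both comparisons, but this measure cannot decide it. Knockout DMSO and wild-type imiquimod libraries, which differ in genotype and treatment, correlated higher, at 0.493 and 0.414. The main tests are unpaired throughout, and the replicate block is an alternative.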

Additional observations from a re-analysis of the deposited data

Results flagged for a closer look

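For 3 genes the imiquimod response of knockout skin differed from that of Cre-negative skin by a test of the difference itself, in edgeR's model with Benjamini-Hochberg adjustment over all genes. For Prf1 the difference of the log2 fold changes was 6.133 (adjusted p = 0.0010), with 2.36 and 0.974 CPM against 0, 0 and 0.113 CPM in knockout skin (imiquimod, then DMSO) and 1.29 and 1.08 CPM against 4.58, 2.85 and 4.59 CPM in Cre-negative skin. For Nkg7 it was 4.877 (adjusted p = 0.018), and for Trbc2 it was -2.318 (adjusted p = 0.0067). Of 10 pan-leukocyte genes 9 had a positive difference past the threshold, where 14% of all genes did, in the direction of Prf1 and Nkg7 and against that of Trbc2, and their part was not tested. Sex also differs between imiquimod and DMSO libraries of knockout skin. With a sex term Prf1 and Trbc2 passed and Nkg7 did not (edgeR adjusted p = 0.059). That term rests on Cre-negative DMSO skin, the only group with both sexes, so sex and imiquimod cannot be told apart in knockout skin.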

How the results depend on the processing

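Of 1400 values of single genes under alternative settings, 1287 kept their direction and side of the threshold, 55 gained and 47 lost the call, and 11 turned direction. None of the 11 belonged to a called result, and the cause was not tested. Without the libraries highest in 18S RNA, Trdc stood at 0.707 in Cre-negative imiquimod against DMSO skin and at -0.461 in the difference of responses (knockout minus Cre-negative). Over the fits that leave out 1 library the same values for Trdc ran from -1.554 to 0.643 and from -0.267 to 1.94. For knockout against Cre-negative imiquimod skin these fits gave -3.283 to 0.72 for Cd3e, -2.621 to 0.745 for Cd3g, -0.263 to 0.964 for Prf1 and -0.537 to 6.397 for Nkg7. For Cd3d they gave -1.566 to 1.551 in knockout imiquimod against DMSO skin and -0.686 to 2.413 in the difference of responses.

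The number of the 8 genes past the threshold moved by over 1.5 times as follows, and the cause was not tested. With library size alone it was 0 for knockout against Cre-negative imiquimod skin, 3 for imiquimod in Cre-negative, 1 in knockout and 6 in wild-type skin. That scaling shifts the median log2 fold change of all genes to -0.41 in knockout against Cre-negative DMSO skin and to -0.76 for imiquimod in wild-type skin (-0.06 and -0.09 with TMM). Without a filter it was 3 in Cre-negative and 5 in wild-type skin, and with a stricter filter 2 in Cre-negative skin. DESeq2 gave 2 for knockout against Cre-negative imiquimod skin, 3 in Cre-negative and 5 in wild-type skin, and voom gave 2 for the first. With only the groups compared it was 2 in Cre-negative and 1 in knockout skin, with a sex term 0 and 1, and without the high-18S libraries 5 in wild-type skin.

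Leaving out each library gave 6 to 7 genes for knockout against Cre-negative DMSO skin, 6 to 8 against wild-type DMSO skin, 0 to 2 for knockout against Cre-negative imiquimod skin, and, for imiquimod against DMSO, 0 to 3 in Cre-negative skin, 1 to 2 in knockout skin and 0 to 5 in wild-type skin. The difference of responses had 1 (without knockout imiquimod replicate 1) to 7. A lone library was assumed to vary like the other groups. With the replicate number as a block the count was 2 for knockout against Cre-negative imiquimod skin and 1 for imiquimod in knockout skin. It kept all 6 calls for knockout against Cre-negative DMSO skin, where the numbers may be paired, and gave 6 against wild-type DMSO skin, where Trbc2 was lost. The numbers may also be paired for imiquimod in knockout skin, where the block lost the call of Trbc2. Elsewhere the libraries were taken to share only a number. Over all comparisons 11 of 31 same-number pairs correlated at over 0.1, in a range of -0.32 to 0.493. Depth limits Gzmb, Prf1, Nkg7 and the CD3 chain genes of knockout skin, where some libraries hold 0 to 3 counts.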
